A study of Mus musculus with 9 samples.

Results

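CTCF and Rad21 peaks were examined around 6 mouse genes, the E protein genes Tcf3, Tcf4 and Tcf12 and the Id genes Id1, Id2 and Id3. Every peak of the 5 deposited confident-peak lists that overlapped the mm9 gene body of a member, or the 100 kb on either side of it, was taken. These 6 genes, of 22350 protein-coding genes annotated on the autosomes and X, held 416 peaks in the 5 lists together. Peaks of different lists that overlapped were merged, which gave 157 sites, 73 in the E protein windows and 84 in the Id windows.

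E proteins are basic helix-loop-helix transcription factors that bind E-box sequences as dimers, and they are required for the commitment and early development of B and T lymphocytes. Id proteins share the helix-loop-helix domain but lack the basic region, so they pair with E proteins and keep them off DNA. The balance between both families is set partly by how much of each is transcribed. CTCF is a zinc finger protein that marks many loop anchors, and Rad21 is a subunit of cohesin, the ring complex that extrudes chromatin loops and is often halted at CTCF sites.

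All cells came from RAG1-deficient C57BL/6 mice, in which antigen receptor genes cannot rearrange and lymphocyte development stops at a defined stage. CTCF was profiled by ChIP-seq in RAG-/-µ+ pre-B cells, whose mice carry a rearranged IgM transgene, and in RAG1-/- pro-B cells after 7 days of culture with IL7. Rad21 was profiled in the same pre-B cells, in CD4-CD8- (DN) thymocytes of Rag1-/- mice, and in CD4+CD8+ (DP) thymocytes of Rag1-/- mice with a rearranged TCRb transgene. Bone marrow donors were 6 to 14 weeks old and of both sexes, and thymus donors were 4 to 8 weeks old. The culture medium contained supernatant of cells that express IL7. The stage of each population rests on the RAG1 block and, for pre-B and DP cells, on the transgene, since no marker transcripts were measured here. The paper reports that pro-B cells cultured with IL7 resembled pre-B cells in many traits, among them CTCF binding at the Igκ locus. The pre-B and IL7-cultured CTCF lists therefore do not come from clearly separate stages. Each antibody was sequenced in 1 library per cell type. Nothing here therefore has replicate error, no test between cell types was made, and each interval given is an exact 95% Clopper-Pearson interval that covers counting error only. The lists differ in length, with 42250 (pre-B) and 71080 (IL7-cultured pro-B) CTCF peaks and 30488 (pre-B), 9701 (DN) and 36743 (DP) Rad21 peaks. A peak score grows with read depth, which is unknown, so scores were ranked only within their own list, as the share of that list's peaks with a lower score. The absence of a peak means only that no call was made, and such a site may still be bound.

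The stretches below, taken from the mm9 genome, are the best matches to the CTCF consensus in the pre-B CTCF peaks of sites next to the members that were called in all 5 lists. Both Id1 upstream sites lie in introns of H13, the nearer one close to a start of the predicted gene Gm17559, and the others lie outside annotated genes. Shown are the 11 stretches outside Tcf4 whose best match had at most 3 mismatches, lay on a single strand and was within 100 bp of the peak's midpoint. They are shown because every library shares these sites and because the strand of a CTCF motif gives it a direction. Each is written 5′ to 3′ on the strand that holds the consensus of 12 letters found by the study with HOMER, with the 12 matched bases in capitals and 24 bases of flank on each side. The reverse complement of these letters is the usual forward form of the motif, so a match on the plus strand points to lower coordinates. The matches have at most 2 mismatches, except those 80.4 kb upstream of Tcf12, 64.7 kb upstream of Id1 and past the 3′ end of Id2, which have 3.
Tcf12, 37.6 kb past the 3′ end (chr9:71654404-71654463, plus strand): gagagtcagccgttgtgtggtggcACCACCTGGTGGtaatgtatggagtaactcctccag
Tcf12, 12.3 kb past the 3′ end (chr9:71679731-71679790, minus strand): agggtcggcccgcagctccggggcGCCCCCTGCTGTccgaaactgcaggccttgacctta
Tcf12, 80.4 kb upstream (chr9:72040056-72040115, minus strand): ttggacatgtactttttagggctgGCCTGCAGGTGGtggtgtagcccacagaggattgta
Id1, 64.7 kb upstream (chr2:152497474-152497533, minus strand): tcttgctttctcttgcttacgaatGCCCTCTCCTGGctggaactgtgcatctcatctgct
Id1, 39.3 kb upstream (chr2:152522658-152522717, minus strand): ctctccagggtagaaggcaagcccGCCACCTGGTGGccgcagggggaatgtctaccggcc
Id1, 5.23 kb past the 3′ end (chr2:152568334-152568393, plus strand): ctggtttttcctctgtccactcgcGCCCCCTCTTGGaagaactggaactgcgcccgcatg
Id2, 0.987 kb past the 3′ end (chr12:25777267-25777326, minus strand): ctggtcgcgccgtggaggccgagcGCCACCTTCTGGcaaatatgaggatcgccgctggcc
Id3, 73.3 kb upstream (chr4:135626007-135626066, minus strand): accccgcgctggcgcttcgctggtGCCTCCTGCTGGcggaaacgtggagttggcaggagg
Id3, 72.1 kb upstream (chr4:135627436-135627495, minus strand): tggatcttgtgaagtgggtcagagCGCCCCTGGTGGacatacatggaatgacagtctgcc
Id3, 4.35 kb past the 3′ end (chr4:135705813-135705872, plus strand): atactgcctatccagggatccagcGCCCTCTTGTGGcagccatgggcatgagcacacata
Id3, 54.3 kb past the 3′ end (chr4:135755945-135756004, plus strand): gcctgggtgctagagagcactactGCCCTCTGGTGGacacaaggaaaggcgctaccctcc

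In these 11 stretches the match lay between 1 and 96 bp from the midpoint of its CTCF peak. The Id1 and Id3 genes lie on the plus strand. The minus-strand matches shown upstream of them and the plus-strand matches shown past their 3′ ends therefore pointed toward the gene from both sides. At Id3 this uniform direction depends on the limit on distance from the peak's midpoint. That limit left out the Id3 sites 14.6 and 56.9 kb past the 3′ end, also called in all 5 lists. Their matches, with 2 mismatches, lay 319 and 254 bp from the midpoint. The former pointed toward Id3 and the latter away from it. Id2 lies on the minus strand, and the match past its 3′ end, with 3 mismatches, pointed back across the gene. Tcf12 also lies on the minus strand. Its match 12.3 kb past the 3′ end pointed toward the gene, while those 37.6 kb past the 3′ end and 80.4 kb upstream pointed away from it. The matches with 3 mismatches, at Id2, 64.7 kb upstream of Id1 and 80.4 kb upstream of Tcf12, exceed the limit of 2 used elsewhere. Their sites have no direction in the counts given below. Sequence 2 kb away was not searched at 3 mismatches, so their directions are less certain.

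**Figure D1:**
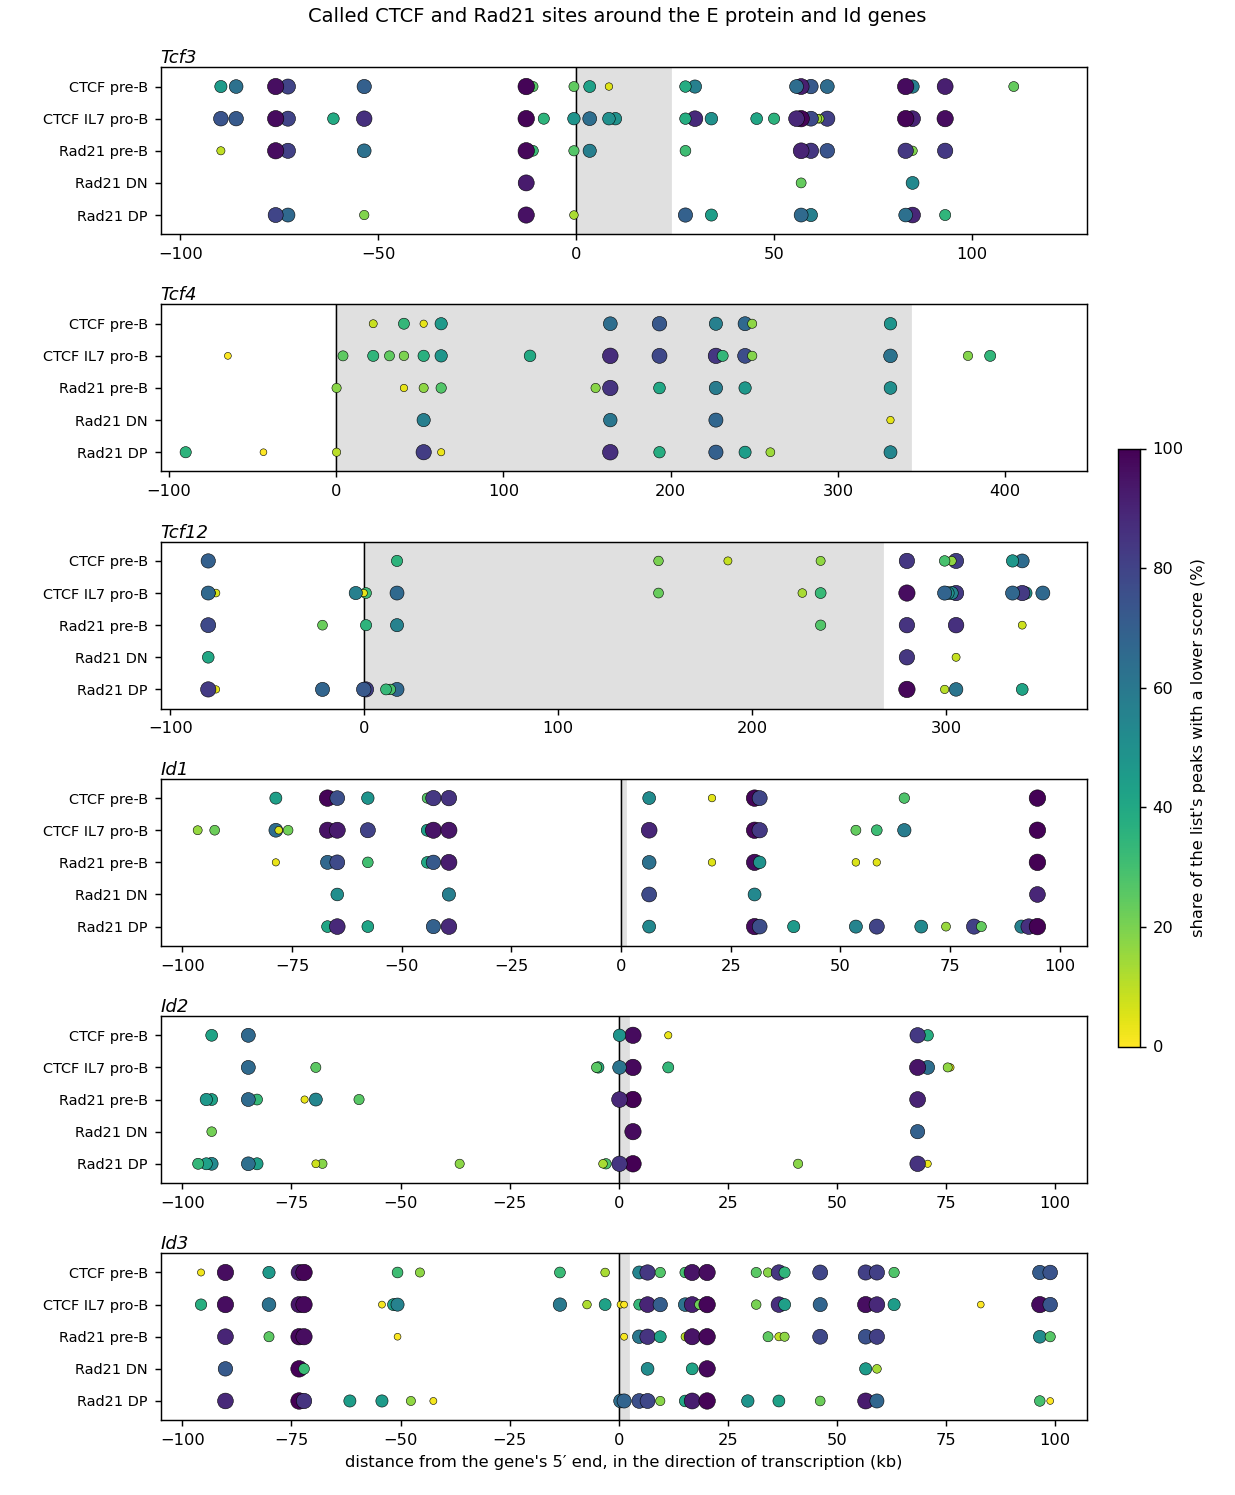
Sites called around each member, plotted by the distance of the site's midpoint from the gene's 5′ end in kb, along the direction of transcription. Each row is a list, the gray band is the gene body, and the color and size of a point give the share of that list's peaks with a lower score. Id3 has the most crowded window, Id1 has no site in its body, and the Tcf4 sites lie mostly inside the gene.

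The members differed widely in how many sites surround them. The window of Id3 held 26 pre-B CTCF peaks, or 12.9 per 100 kb, more than 99.9% of the windows drawn the same way around all coding genes, whose median was 2.99 per 100 kb. The Tcf3 window held 21 peaks, or 9.37 per 100 kb, above 97.3% of coding-gene windows. Id1 had 13 peaks and Id2 had 7, at 6.46 and 3.46 per 100 kb. Both long E protein genes fell below the median, with 10 peaks at 1.84 per 100 kb for Tcf4 and 11 peaks at 2.35 per 100 kb for Tcf12. For Rad21 in pre-B cells, Id3 was again the densest with 10.4 per 100 kb, and Tcf4 and Tcf12 were again below the median of 2.05, with 1.84 and 1.71. Id3 was also the densest in the thymocyte lists, with 3.96 (DN) and 11.9 (DP) per 100 kb, but Tcf4 and Tcf12 were not always below the median there. In DN thymocytes Tcf4 and Tcf12 were above the median of 0.494, with 0.736 and 0.642 per 100 kb, and in DP thymocytes Tcf12 was above the median of 2.33 with 2.57 and Tcf4 below it with 2.02. The windows differ in gene content as well, since Tcf3 shares its window with 11 other coding genes and Tcf4 with none. The part of neighboring genes in these densities was not tested.

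Of the 157 sites, 25 were called in all 5 lists, or 15.9% (95% interval 10.6 to 22.6), where 10.3% of the 83461 merged sites of the genome were. Another 51 sites had CTCF but no Rad21 peak, or 32.5% (25.2 to 40.4) against 44.8% in the genome, and 29 had Rad21 but no CTCF peak, or 18.5% (12.7 to 25.4) against 15.1%. Both CTCF lists are from B lineage cells, so a thymocyte Rad21 peak without CTCF means without a CTCF call in those cells. Sites of a window are neighbors of each other, and these intervals treat them as separate draws. A rank above 90% in every list was reached by 4 sites, or 2.55% (0.698 to 6.39), where 0.442% of merged sites in the genome did. These were 1 site upstream of Tcf3, 1 just past the 3′ end of Id2, 1 upstream of Id3 and 1 past the 3′ end of Id3. By position, 9 of the 157 sites lay within 1 kb of an annotated transcript start of the member, 23 in an intron, 1 over an exon, 57 upstream and 67 past the 3′ end.

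Tcf3, which encodes E proteins essential for the B cell lineage, occupies chr10:79872259-79896392 on the minus strand and has 11 annotated transcript starts. Its leading site lay 12.6 kb upstream, at chr10:79908368-79909554, outside any annotated gene. The CTCF score there was 2222.24 in the pre-B library and 3053.95 in the IL7-cultured pro-B library, above 98.9% and 99.2% of the respective lists. The Rad21 scores were 1569.52 (pre-B), 357.12 (DN) and 1174.88 (DP), above 98.4%, 92.8% and 95.6% of those lists. The site thus stood near the top of each list. The best consensus match in its CTCF peak, with 2 mismatches, occurred on both strands, so no direction was assigned and no sequence is shown.

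Weaker peaks marked the Tcf3 promoters. At the 5′ end, the site centered 0.508 kb upstream outscored 24.3% of CTCF peaks in the pre-B list and 48.3% in the IL7-cultured list. Rad21 at this site scored above 26.6% of the pre-B list and 12.7% of the DP list. The site 3.48 kb inside the gene, over internal transcript starts, had CTCF in both B lineage lists, at 43.0% and 64.4%, and Rad21 in pre-B cells at 57.1%, but no Rad21 peak in either thymocyte list. Both sites inside the introns of Tcf3 had CTCF without Rad21. In the flanks, a site 75.9 kb upstream in an intron of Onecut3, a homeobox gene, outscored 96.2% of CTCF peaks and 96.7% of Rad21 peaks called in pre-B cells, but 79.3% of the DP list. A site 59.2 kb past the 3′ end outscored 97.3% of pre-B CTCF peaks, 83.8% of pre-B Rad21 peaks and 63.6% of DP Rad21 peaks. All 28 sites of the Tcf3 window had a CTCF peak.

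Tcf4, whose product is the E protein needed for plasmacytoid dendritic cells, spans 343822 bp at chr18:69503800-69847621 on the plus strand. Of its 22 sites, 17 lay within the gene or at its promoters, and all 10 pre-B CTCF peaks and all 10 pre-B Rad21 peaks were there. The site at the 5′ end had Rad21 without CTCF, above 17.8% of the pre-B list and 10.2% of the DP list. The only other promoter site, 249 kb inside the gene, had CTCF without Rad21, at 16.9% of the pre-B list and 18.6% of the IL7-cultured list. The promoters of Tcf4 were therefore called with different proteins, each at a low rank.

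The 4 Tcf4 sites called in all 5 lists were deep in the gene, 52.3, 164, 227 and 331 kb from the 5′ end. The site at 164 kb ranked highest of the 4 in every list but DN, above 64.1% and 87.1% of the CTCF lists in pre-B and IL7-cultured cells. Rad21 ranked at 84.8% there in pre-B cells, at 60.6% in DN thymocytes and at 86.3% in DP thymocytes. In the DN list the site at 227 kb ranked higher, at 67.5%. The Rad21 ranks of the site at 52.3 kb were 17% (pre-B), 57.0% (DN) and 82.3% (DP), from lists of different lengths. CTCF there scored above 3.89% of the pre-B list and 36.6% of the IL7-cultured list. The site at 193 kb had a perfect consensus match and CTCF in pre-B cells above 72.7% of the list, the highest in this window, with Rad21 in pre-B cells and DP thymocytes but no DN peak.

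Tcf12, which encodes the E protein HEB that acts with the Tcf3 products in thymocytes, spans 267568 bp at chr9:71692059-71959626 on the minus strand. Its promoter carried 2 neighboring sites. The inner site, 0.945 kb into the gene, had Rad21 with a score of 122.82 (pre-B) and 445.35 (DP), above 35.3% and 81.4% of those lists. The outer site, 0.239 kb upstream, had Rad21 in DP thymocytes alone, above 72.5% of the list. CTCF was called at both only in IL7-cultured pro-B cells, above 31.8% and 3.67% of the list. The Tcf12 promoter therefore ranked higher for Rad21 in the DP list than in the pre-B list, with no pre-B CTCF call.

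No site inside Tcf12 was called in all 5 lists. Of its 7 intron sites, the one 16.9 kb from the 5′ end had CTCF in both B lineage lists, at 35.3% and 66%, and Rad21 in pre-B cells at 55.8% and DP thymocytes at 66.6%. The leading site lay 12.3 kb past the 3′ end, at chr9:71679357-71680253. CTCF scored 955.16 and 2174.8 there in pre-B and IL7-cultured cells, above 83.8% and 96.7% of the lists. Its Rad21 scores of 625.83 (pre-B), 271.69 (DN) and 1719.02 (DP) were above 84.9%, 84.4% and 98.3% of their lists. The sites 37.6 kb past the 3′ end and 80.4 kb upstream were also in all 5 lists, and their pre-B Rad21 ranks were 86.1% and 78.1%. In DN thymocytes these were 8.67% and 40.5%, and in DP thymocytes 61.3% and 82.7%.

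Id1, an inhibitor used in many progenitor cells, is a gene of 1160 bp at chr2:152561987-152563146 on the plus strand. It was the only member with no peak of any list in its body or within 1 kb of its start. No site was centered between 39.3 kb upstream and 5.23 kb past the 3′ end. The nearest site past the 3′ end, at chr2:152567935-152568826, was in all 5 lists. Its CTCF ranks were 52.2% in pre-B and 89.2% in IL7-cultured cells, and its Rad21 ranks were 63.2% (pre-B), 77.5% (DN) and 53.3% (DP). The 6 upstream sites nearest to Id1 lay in H13 or at its promoters, and this gene encodes a signal peptide peptidase. At the H13 promoter, 66.9 kb upstream of Id1, CTCF scored above 99.0% of the pre-B list, while Rad21 scored above 66.5% of the pre-B list and 40.8% of the DP list with no DN peak.

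The highest-ranking site of the Id1 window lay at the promoter of its neighbor Bcl2l1, which encodes the survival protein Bcl-xL. It was centered 93.7 kb past the 3′ end of Id1, at chr2:152655825-152657960. Its scores were 2652.88 for pre-B CTCF, 3100 for CTCF in IL7-cultured cells, and, for Rad21, 3100 (pre-B), 314.52 (DN) and 3100 (DP). The value 3100 is shared by many of the strongest peaks, so their order cannot be read. These scores were above 99.5%, 99.3%, 99.96%, 89.4% and 99.9% of the 5 lists. Within Bcl2l1, 7 sites had a Rad21 peak in DP thymocytes and in no other list, 5 of them in introns and 2 at the promoter. Their DP ranks ran from 15.4% to 86.3%. Over the Id1 window, 7 of 21 merged Rad21 sites, or 33.3%, were called in the DP list alone, close to the 33.6% of the genome. At the sites 52.4 and 57.1 kb past the 3′ end of Id1, also in Bcl2l1 introns, Rad21 ranked at 5.61% and 4.50% in pre-B cells and at 55.0% and 79.7% in DP thymocytes.

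Id2, the inhibitor needed for innate lymphoid cells and natural killer cells, is a gene of 2292 bp at chr12:25778666-25780957 on the minus strand, with Kidins220 as the only other coding gene in its window. The site just past its 3′ end, at chr12:25776820-25778538, was among the strongest cohesin sites of every cell type. Rad21 scored 2609.42 there in pre-B cells, rank 41 of 30488, and 2630.41 in DP thymocytes, rank 91 of 36743. In DN thymocytes it scored 446.11, rank 278 of 9701. CTCF scored 1752.39 in the pre-B library and 2371.17 after IL7 culture, above 97.2% and 97.9% of the lists. Its ranks for Rad21 were thus higher than those for CTCF in pre-B cells, and the consensus match printed above was 3 mismatches away.

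The Id2 promoter was also called for both proteins. CTCF scored 291.92 in the pre-B library and 562.2 after IL7 culture, above 48.1% and 61.5% of the lists. Rad21 scored 762.71 (pre-B) and 526.53 (DP), above 88.7% and 84.5%, with no DN peak. Of the 22 sites of the Id2 window, 10 had Rad21 alone, 9 of them upstream and 1 past the 3′ end. Of these 10, 6 were called in DP thymocytes alone, where CTCF was not analyzed. The 10 sites were 45.5% of the window's sites (95% interval 24.4 to 67.8), against 15.1% of merged sites in the genome, and the other members ran from 0 of 28 at Tcf3 to 7 of 26 at Id1. None of the Id2 sites with Rad21 alone ranked above 46.9% of the pre-B list or 44% of the DP list. A site 66.2 kb past the 3′ end, in a Kidins220 intron, was in all 5 lists, with CTCF ranks of 83.5% and 94.6% and Rad21 ranks of 90.3% (pre-B), 69.3% (DN) and 85.5% (DP).

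Id3, the inhibitor induced by pre-TCR and TCR signaling, is a gene of 2259 bp at chr4:135699412-135701670 on the plus strand. Its window held 36 sites, of which 8 were in all 5 lists, the most of any member. A pair of adjacent sites lay 73.3 and 72.1 kb upstream, outside any annotated gene. At the outer site, chr4:135625675-135626632, the Rad21 score was 1458.29 (pre-B), 639.36 (DN) and 2963.17 (DP). These were above 97.9%, 99.5% and 99.9% of the lists, and rank 48 of 9701 in DN thymocytes was the highest DN rank in the 6 windows. CTCF at this site scored above 91.4% and 93.9% of the lists in pre-B and IL7-cultured cells. The inner site, chr4:135626647-135627930, was ordered the other way. CTCF there scored above 99.2% and 97.8% of the lists, while Rad21 ranked at 96.5% in pre-B cells, and at 31.9% and 84.9% in DN and DP thymocytes.

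Past the 3′ end of Id3, sites followed each other closely. The leading site, at chr4:135719187-135720140 and 18.0 kb past the end, scored above 96.5% and 98.6% of the CTCF lists in pre-B and IL7-cultured cells. Its Rad21 ranks were 98.1% (pre-B), 98.0% (DN) and 98.9% (DP). The sites 4.35 and 14.6 kb past the 3′ end were in all 5 lists as well, with pre-B Rad21 above 85.2% and 94.7% of the list. E2f2, a neighbor that encodes a cell cycle regulator, held 3 sites with DP Rad21 peaks, ranked from 22.3% to 48.1%. At the Id3 promoter, Rad21 in DP thymocytes scored above 63.9% and 68.0% of the list at 2 neighboring sites. In pre-B cells only the second was called, with a score of 61.74, above 1.45% of the list. CTCF was called there only in IL7-cultured pro-B cells, above 2.08% and 0.605% of the list.

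**Figure D2:**
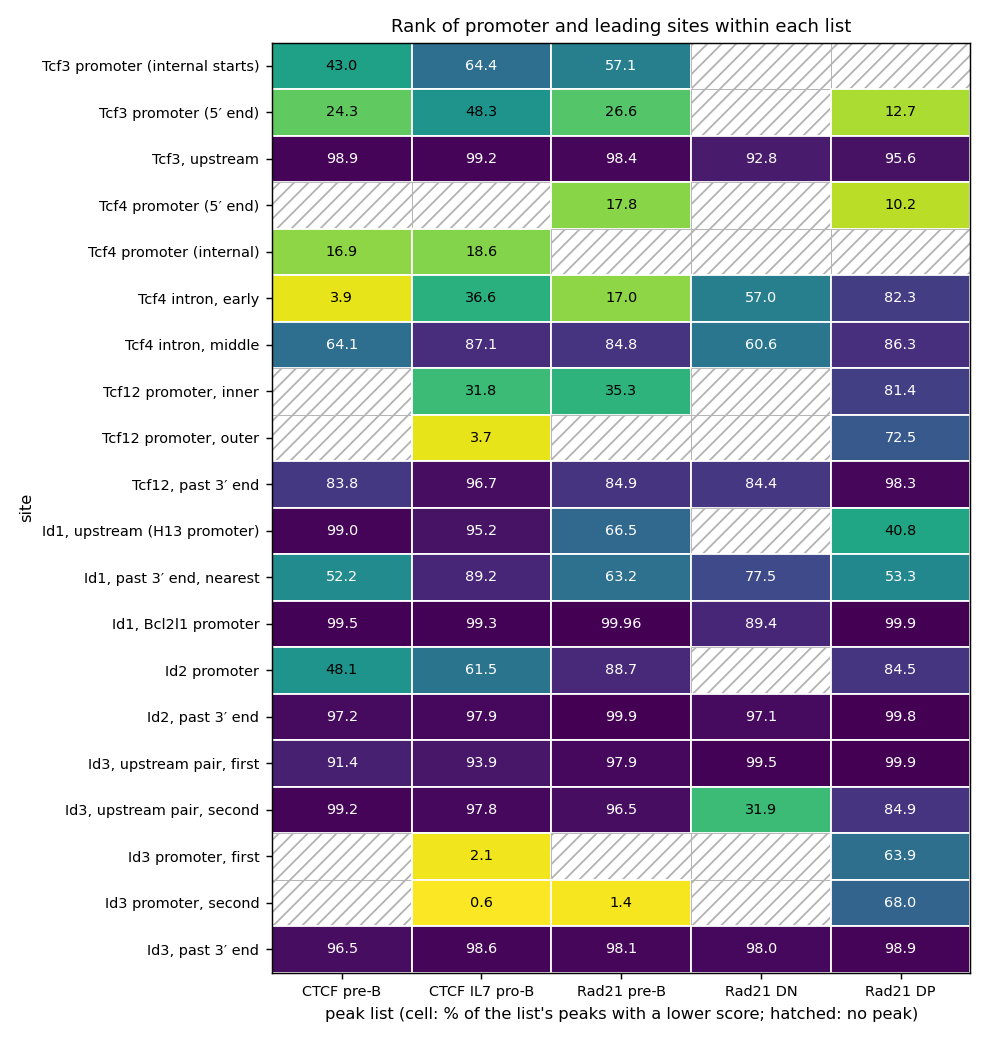
Rank of the promoter sites and of leading sites of each member in the 5 lists, as the share of the list's peaks with a lower score. Hatched cells had no peak. The Tcf3 upstream site, the Id2 3′ site, the first Id3 upstream site and the Id3 3′ site are above 90% in each list, while no promoter site of a member has a DN peak.

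Read across the members, promoter calls varied with the list. In pre-B cells, 5 of 6 members had a Rad21 peak within 1 kb of a transcript start, all but Id1, where 20.9% of coding genes had such a peak. In DP thymocytes the same 5 members had a peak, against 33% of coding genes. No member had a promoter peak in DN thymocytes, where 4.57% of coding genes did. CTCF was called at 3 of 6 promoters in pre-B cells, those of Tcf3, Tcf4 and Id2, against 27.1%. The IL7-cultured library had calls at 5 of 6, all but Id1, against 38.8%. Tcf3 and Tcf4 have 11 and 14 annotated starts, which gives them more promoter sequence than a gene with 1 start. With every list limited to its 9701 highest scores, only the Id2 promoter kept a pre-B Rad21 peak, those of Tcf12 and Id2 kept a DP peak, and none kept a CTCF peak. Of all coding genes, 5.33% (pre-B) and 7.79% (DP) then had a Rad21 promoter peak, and 7.64% and 7.91% had a CTCF peak in the pre-B and IL7 lists. Among 13 other genes of helix-loop-helix factors and their cofactors, 6 had a Rad21 promoter peak in the pre-B list, 2 in the DN list and 5 in the DP list, and 6 and 7 had a CTCF promoter peak in the pre-B and IL7 lists.

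Rad21 calls were next compared between the pre-B, DN and DP libraries. When only the 3 Rad21 lists were merged, the windows held 107 sites. Of these, 26 were called in all 3 cell types, or 24.3% (95% interval 16.5 to 33.5), against 18.7% of 46478 sites in the genome. Another 35, or 32.7% (24 to 42.5), had calls in the pre-B and DP lists but not the DN list, against 25.1%. In pre-B cells alone there were 16, or 15% (8.80 to 23.1), against 20.6%, and in DP thymocytes alone 30, or 28.0% (19.8 to 37.5), against 33.6%. Each genome share lay inside the counting interval of the members. All 26 sites in the DN list were also called in the other two lists, where 90% of DN sites in the genome were. With the lists limited to 9701 peaks each, the class called in pre-B and DP but not DN fell to 2 of 41 sites, or 4.88%, against 6.50% in the genome, so this class depends on the length of the lists.

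**Figure D3:**
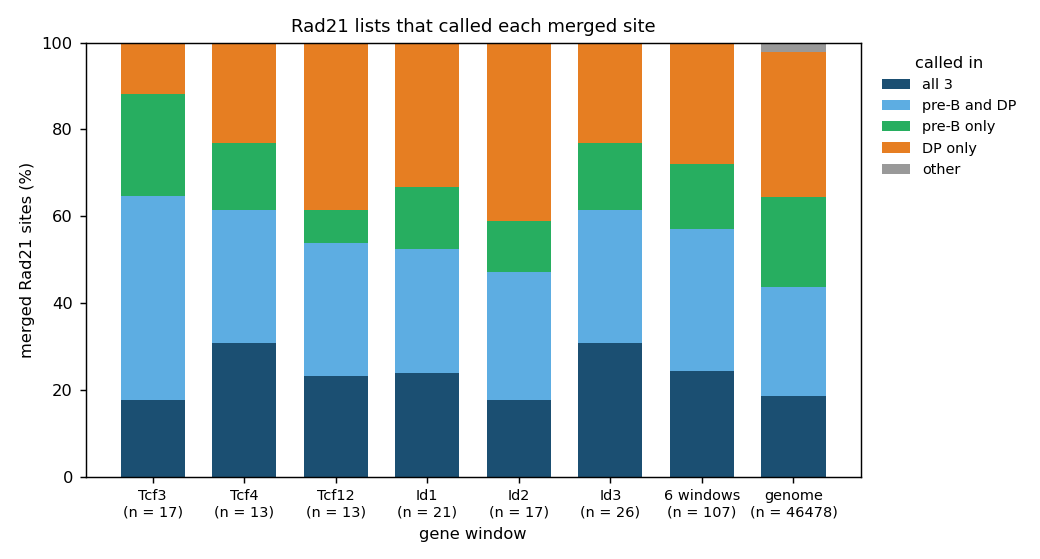
Merged Rad21 sites by the lists that called them, as a percentage of the sites in each member's window, in the 6 windows and in the genome, with the number of sites under each bar. Sites called in DP thymocytes alone run from 11.8% at Tcf3 to 41.2% at Id2, on small numbers.

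CTCF peaks were counted at the sites of each class. All 26 sites shared by the 3 cell types had a CTCF peak, where 99.9% did in the genome, and 13 of the 16 called in pre-B cells alone did, or 81.2%, against 85.4%. Of the 30 called in DP thymocytes alone, 8 had a CTCF peak in either B lineage list, or 26.7%, where 34.3% of such sites in the genome did. CTCF in thymocytes was not analyzed here. The DP-only sites were 2 at Tcf3, 3 at Tcf4, 5 at Tcf12, 7 at Id1, 7 at Id2 and 6 at Id3. The highest-ranking was at the Bcl2l1 promoter, above 86.3% of the DP list. The pre-B-only sites were led by a site 39.4 kb past the 3′ end of Tcf3, above 73.9% of the pre-B list, and by the internal Tcf3 promoter at 57.1%.

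Ranks were set side by side for the 61 sites called for Rad21 in both pre-B cells and DP thymocytes, now counted on the merge of all 5 lists. Spearman's rho between both ranks was 0.59 over these sites and 0.58 over the 20237 such sites of the genome, which share the same 2 libraries. The rank was higher in DP thymocytes at 27 of the 61 sites, where 53.9% were in the genome. The members were ordered differently. At Tcf12, 6 of 7 sites ranked higher in DP thymocytes, with a median difference of 13.5 percentage points of rank, and at Tcf3, 2 of 11 did, with a median difference (DP minus pre-B) of -17.4. The rank in the DP list exceeded that in the pre-B list most at a Bcl2l1 intron site of the Id1 window (75.2 points), a site at the Adamtsl5 promoter in the Tcf3 window (69.9), the second Id3 promoter site (66.5) and the Tcf4 site at 52.3 kb (65.3). The rank in the pre-B list exceeded that in the DP list most at an E2f2 intron site in the Id3 window (56.1 points) and at another Adamtsl5 promoter site in the Tcf3 window (48.6). These are differences of rank between lists of unequal length, 30488 and 36743 peaks, from 1 library each, so they have no replicate check and do not measure a change in binding.

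**Figure D4:**
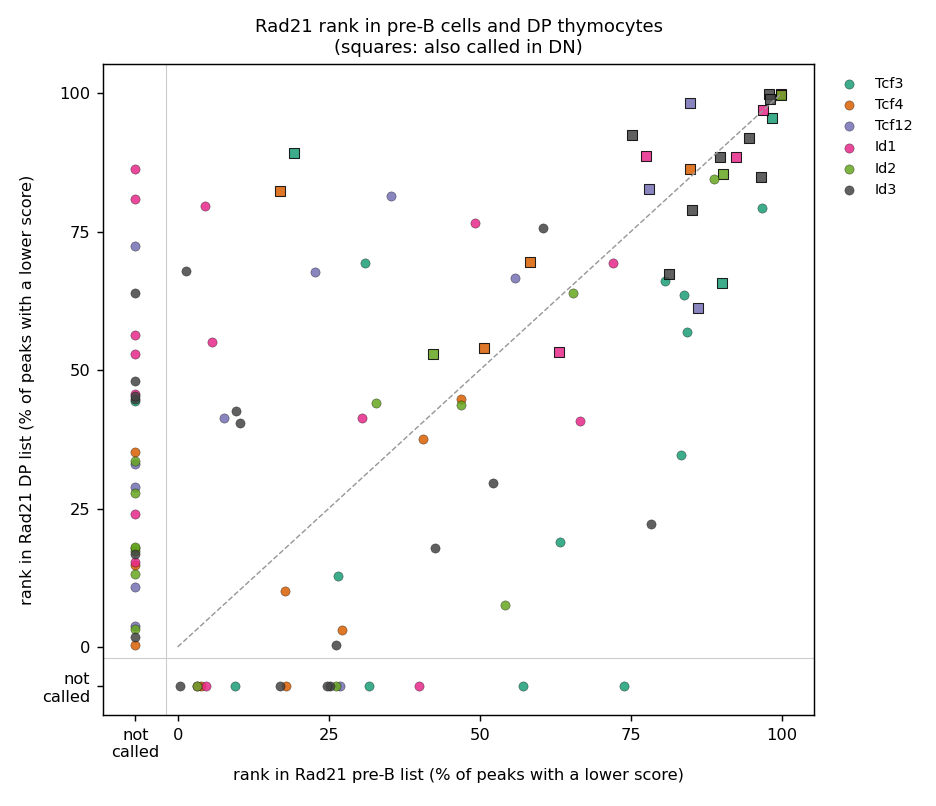
Rank of each Rad21 site in the pre-B list (x) and in the DP list (y), as the share of the list's peaks with a lower score, colored by member. Squares were also called in DN thymocytes, points on the margins were called in 1 of these lists only, and the dashed line marks equal rank. The squares sit mostly above 50% in both lists.

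CTCF and Rad21 coincided often. Of the 88 pre-B CTCF peaks, 67 overlapped a pre-B Rad21 peak, or 76.1% (95% interval 65.9 to 84.6), against 63.5% in the genome, which lay below the interval. The genome share fell inside the interval in both alternatives that changed the lists, with 67.1% (55.6 to 77.3) against 59.1% at scores of at least 100, and 87.9% (77.5 to 94.6) against 78.9% at equal list length. In the main comparison, the share was 71.4% for the E protein windows and 80.4% for the Id windows, and ran from 6 of 11 at Tcf12 to 12 of 13 at Id1. Conversely, 65 of 79 pre-B Rad21 peaks overlapped a pre-B CTCF peak, or 82.3% (72.1 to 89.96), against 88.1%. All 15 did so at Tcf3 and 5 of 11 at Id2. Between the B lineage libraries, 81 of the 88 pre-B CTCF peaks also had a call after IL7 culture, or 92.0% (84.3 to 96.7), against 96%. At scores of at least 100 this share was 88.6% (79.5 to 94.7), with the genome at 96.1%, above the interval. Of the 128 peaks in the longer list of IL7-cultured cells, 84 were called in pre-B cells, or 65.6% (56.7 to 73.8), against 58.6%. The IL7-only calls included the CTCF peaks at the Tcf12 and Id3 promoters.

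The CTCF consensus with at most 2 mismatches was found in 38 of the 88 pre-B CTCF peaks, or 43.2% (95% interval 32.7 to 54.2), against 48.3% of all pre-B CTCF peaks. Sequence of the same length 2 kb away held it in 13.6% of the cases for the members and 9.04% for all peaks. It was found in 8 of 13 peaks at Id1 and in 1 of 7 at Id2, where the sequence 2 kb away held it in 1 of 13 and 2 of 7 cases. Among flanking sites with a CTCF peak and a match of at most 2 mismatches on a single strand, 23 of 36 pointed toward the member, or 63.9% (95% interval 46.2 to 79.2). Over the flanks of all coding genes the share was 48.2%, which lay inside the interval. By member these were 9 of 11 at Id3, 6 of 7 at Id1, 7 of 11 at Tcf3, 1 of 5 at Tcf12 and 0 of 2 at Id2, as counts with no test. At Id3, 3 of 3 upstream matches ran with transcription, and 6 of the 8 past the 3′ end ran against it. A match is a similarity of letters and was not tested as a binding site.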

How the data were processed

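ChIP-seq peaks of 5 libraries, each with the input of the same cells (4 inputs), were used. According to the methods, duplicates and adapters were removed, alignment to mm9 used Bowtie and allowed reads with a few best places, and MACS made the peak calls under a false-discovery rate limit. The submitters' processing notes name Bowtie 0.12.9 and MACS 1.4.2. The methods name a later Bowtie release. The deposited lists hold the position and a score of each peak, and the authors' score derives from the peak's p-value against input. Read depth per library is unknown.

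Gene models were those of the GENCODE annotation on the NCBIM37 assembly, which is mm9. Overlap meant at least 1 bp, a promoter 1 kb on either side of an annotated transcript start, and flanks 100 kb. The rank of a peak is the percentage of peaks in its list with a lower score. The consensus of 12 letters was searched on both strands, with strands left unassigned where both matched equally well. Sites were named by a rule: those at a member's promoter or in its body, the highest-ranking of each window and list, those of a single Rad21 list and those of all 5 lists. Flanking sites named outside it, among them those at Onecut3, Adamtsl5, the H13 promoter, Bcl2l1 introns and E2f2, and 59.2 kb past Tcf3, were chosen after their values were seen. The members, the 13 other genes of helix-loop-helix factors and their cofactors (Id4, Tal1, Tal2, Lyl1, Msc, Bhlhe40, Bhlhe41, Ascl2, Cbfa2t2, Cbfa2t3, Runx1t1, Ep300 and Crebbp) and the rules were chosen with earlier results of these data known. Methods were tested on simulated data. Intervals came from scipy 1.17.1, sequences were read with pysam 0.24.0, figures were drawn with matplotlib 3.10.9, and all ran under Python 3.11.15 with numpy 2.4.6.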

Additional observations from a re-analysis of the deposited data

How the results depend on the processing

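Of 59 values recomputed under other settings, 37 stayed within 1.5 times the count, or inside the counting interval of the share. With flanks of 50 kb, the windows held 54, 76, 45, 15 and 53 peaks of CTCF in pre-B and IL7-cultured cells and of Rad21 in pre-B, DN and DP cells. With each list limited to its 9701 highest scores, the first 3 and the last of these counts were 26, 29, 29 and 27. The Rad21 classes became 41.5% for all 3 cell types, 4.88% for pre-B and DP, and 14.6% for DP only, where the genome gave 33.2%, 6.50% and 15.6%. With both pre-B lists at 30488 peaks, 87.9% of CTCF peaks had Rad21, against 78.9% in the genome. Promoter calls at equal list length, an alternative chosen after seeing the data, fell to 0 for CTCF in pre-B and 0 in IL7-cultured cells, 1 for Rad21 in pre-B and 2 in DP cells, against 7.64%, 7.91%, 5.33% and 7.79% of coding genes. With scores of at least 100, they were 3 each for CTCF in IL7-cultured cells and Rad21 in pre-B and DP cells, against 30.4%, 14.3% and 22.6%. The consensus share was 12.5% with at most 1 mismatch and 11.4% with the motif of 20 letters and at most 4 mismatches, against 16.1% and 16.3% in the genome. No paired analysis was possible because each antibody and cell type had 1 library and no test was made. The list lengths differ with unknown read depth, so calls missing from the DN list are the least informative.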
